A study of Sus scrofa with 12 samples.

Results

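Centriole, basal body and intraflagellar transport genes were followed in RNA of porcine oviduct epithelial cells. The 55 genes were matched by symbol, from the families IFT, BBS, CEP, CETN, TCTN, CPLANE and DYNC2 and single names such as MKS1, PCM1, OFD1 and SASS6. They are 55 of 30461 gene rows of the deposited table. These genes and the lists set beside them were chosen with earlier results of these data known. Bulk sequencing of mRNA 3′ ends gave 12 libraries, 4 in each of 3 groups. Fresh cells had been scraped out of oviducts and were lysed, freshly isolated, as single cells. DMEM/F12 spheroids and incubation medium spheroids are cells that had grouped into rounded 3-dimensional clusters in the named medium, and their library names carry FBS and Diff, which the labels do not explain. No group carries a genetic change or a drug in the labels, which also leave out the animals' age and number, the time in culture and the composition of the media. The study belongs to a method for producing spheroids of even size, and each spheroid group was set against the fresh cells and against the other. Nothing in the labels says that the replicates came from separate animals, so p-values measure the spread between these samples, which may be technical. In bulk RNA, fewer ciliated cells and less RNA per ciliated cell cannot be told apart.

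A cilium grows from a basal body, which is a centriole docked at the cell surface. Intraflagellar transport (IFT) carries building blocks along the cilium: IFT-B complexes move outward with kinesin-2, and IFT-A complexes return with dynein-2. The BBSome carries membrane proteins, and the transition zone at the base gates entry. Ciliated cells of the oviduct each bear many motile cilia and make many centrioles without dividing, whereas a dividing cell copies its centrioles once per cycle, so many of these genes serve both ciliated and cycling cells.

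Libraries held 5045187 to 6026881 counts on gene rows in fresh cells and 7583552 to 8603774 in spheroids. The epithelial label was checked with EPCAM, CDH1, KRT18 and KRT8, the last on a pair of rows, and KRT19 was not analysed here. The second KRT8 row lay under the limit of 3 counts in every fresh library, and the other 4 rows were well above it in all 12. The summed level of the 5 rows, in CPM, each library's counts scaled to a common total by TMM, was 2255 to 2512 in fresh cells, 3520 to 3955 in DMEM/F12 and 3220 to 5075 in incubation medium. In each medium 4 of the 5 rows were called higher, while EPCAM went the other way, from 904 ± 112 to 628 ± 125 and 715 ± 148 CPM (SD, n = 4), called lower in DMEM/F12 (-0.52, adjusted p = 0.00741) and not in incubation medium (-0.34, adjusted p = 0.0625). Markers of motile cilium axonemes had 10 tested genes, and 10 of 10 were lower in each medium, with medians of -3.04 and -2.88 on the log2 scale. Their summed CPM was 829 to 1030 in fresh cells, 89.0 to 220 in DMEM/F12 and 94.2 to 178 in incubation medium. Proliferation markers had 14 tested genes, 14 of 14 higher in each medium, with summed CPM of 61.2 to 88.6, 462 to 536 and 518 to 757. Secretory markers summed to 19469 to 30440 CPM in fresh cells and 1173 to 2187 over both spheroid groups, with 4 of 5 lower and 1 higher in each medium. Leukocyte markers summed to 15.5 to 20.6 CPM in fresh cells, 4.80 to 10.2 in DMEM/F12 and 3.49 to 10.5 in incubation medium, with 2 of 3 tested genes lower in each. Stromal markers summed to 253 to 415, 1074 to 1223 and 233 to 542 CPM. Of 6 tested stromal genes 1 was higher and 2 lower in DMEM/F12 (median -0.38), and 1 was higher and 4 lower in incubation medium (median -1.99), so these sums do not follow most of the genes. Endothelial markers summed to 41.6 to 57.4, 136 to 252 and 91.2 to 148 CPM, with 2 of 3 tested genes higher in each medium, while PECAM1 was lower in both (-0.93 and -0.91, adjusted p = 2.01e-05 and 2.48e-05). No marker with a row was at 0 in all 12 libraries. Among all tested genes, 35.7% were called lower and 35.1% higher in DMEM/F12, and 35.8% each in incubation medium. The part that these marker levels have in the results below was not tested.

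Most of the genes fell in both media. Of 55 genes, 52 passed the filter on low counts. In DMEM/F12 spheroids 39 of the 52 were called lower than in fresh cells and 6 higher (edgeR quasi-likelihood test, Benjamini-Hochberg adjusted p under 0.05). Among all tested genes 35.7% were called lower and 35.1% higher, 70.7% in all. In incubation medium spheroids 39 were called lower and 7 higher, against 35.8% of all tested genes in each direction, 71.7% in all. Without fresh replicate 2, or without fresh replicate 4, 4 were called higher in incubation medium. The median log2 fold change of the 52 genes was -0.85 in each medium, beside -0.01 over all 14070 genes tested. In each medium 22 of the 52 fell at least 2-fold, a change called for 20.3% of all tested genes in DMEM/F12 and 21.5% in incubation medium. Libraries did not overlap with fresh cells, on the lower side, for 39 of the 52 in DMEM/F12 (32.9% of all tested genes) and for 38 in incubation medium (32.5%). The fresh libraries serve in both of these comparisons, which are therefore not independent. By gene, 38 were called lower in both media and 5 were called higher in both, namely CEP152, CEP192, SASS6, CEP20 and CEP55. Another 4 were called in neither, namely TTC21B, CEP44, OFD1 and CEP70, and 5 in 1 medium alone.

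**Figure D1:**
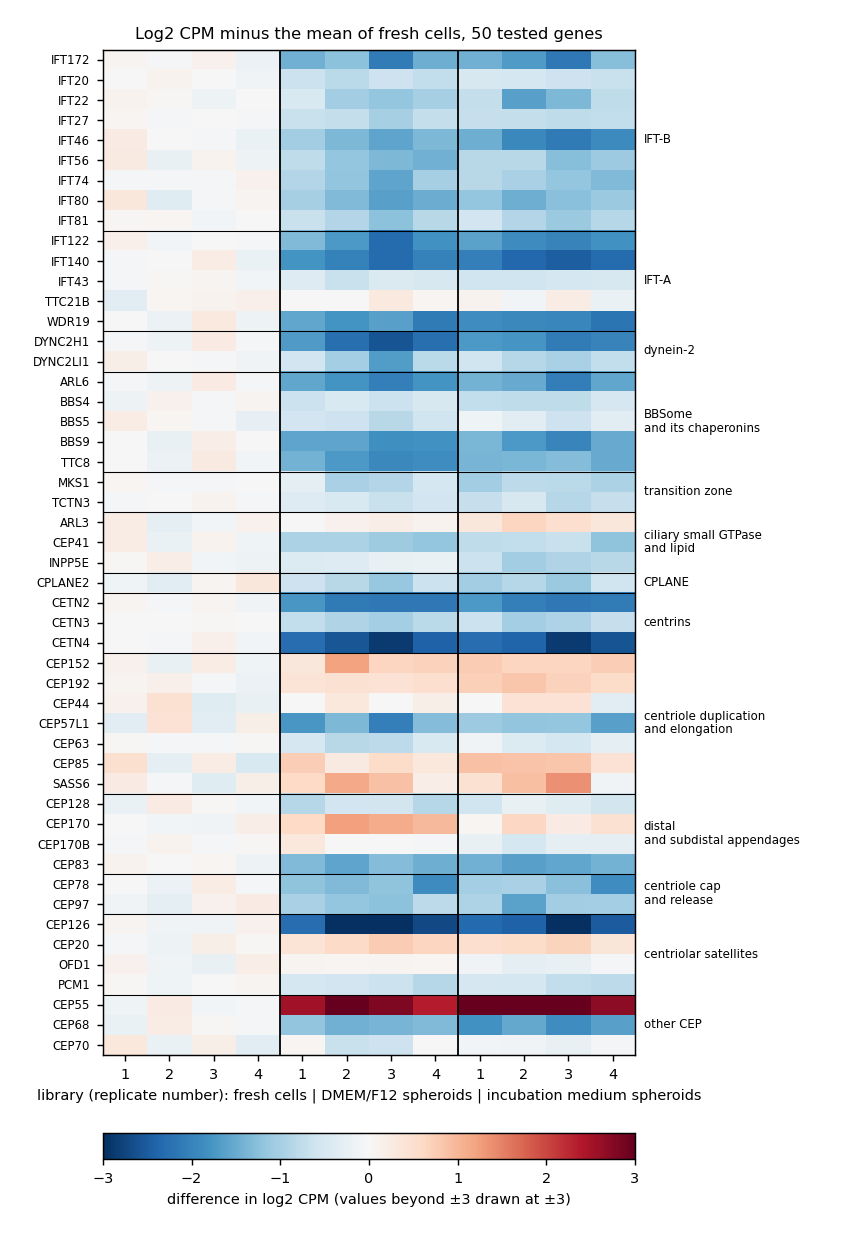
Log2 CPM of 50 of the 52 tested genes (rows, grouped by role) in each of the 12 libraries (columns), minus the mean of the 4 fresh cell libraries. Blue marks lower and red higher values; IFT, dynein-2, BBSome and centrin rows are blue in the 8 spheroid libraries except TTC21B, while CEP152, CEP192, SASS6, CEP20 and CEP55 are mostly red.

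All 9 measured subunits of IFT-B, the outward complex, were called lower in both media. No spheroid library reached the fresh cell range for any of them. Among all tested genes 35.7% were called lower in DMEM/F12 and 35.8% in incubation medium. Libraries did not overlap, on the lower side, for 32.9% and 32.5% of all tested genes. IFT46 (ENSSSCG00025012076), a core subunit of the complex, was at 302, 253, 242 and 222 CPM in fresh cells, 122, 99.8, 84.7 and 98.9 CPM in DMEM/F12 and 90.9, 65.7, 58.3 and 67.3 in incubation medium. It was 2.51-fold lower in DMEM/F12 and 3.61-fold lower in incubation medium, and its log2 fold changes were -1.33 (SE 0.14, adjusted p = 1.45e-06) in DMEM/F12 and -1.85 (SE 0.15, adjusted p = 6.3e-08) in incubation medium. IFT172 (ENSSSCG00025074182), the large subunit that is known to act at the ciliary tip, was at 81.1, 73.4, 83.6 and 67.8 CPM in fresh cells, 27.7, 32.1, 17.5 and 27.6 CPM in DMEM/F12 and 27.8, 23.4, 17.1 and 31.2 in incubation medium. Its lowest value in each medium was that of replicate 3, and its log2 fold changes were -1.54 (adjusted p = 3.37e-06) and -1.62 (adjusted p = 2.11e-06). IFT80 (ENSSSCG00025063098) was at 57.8, 35.7, 43.6 and 48.4 CPM in fresh cells, 22.9, 18, 14.6 and 16.2 CPM in DMEM/F12 and 20.3, 16.4, 19 and 21.1 in incubation medium, with no spheroid library above 22.9. The log2 fold changes of IFT80 were -1.37 (adjusted p = 2.8e-06) and -1.27 (adjusted p = 5.56e-06). The tubulin-binding pair IFT74 and IFT81 fell as well, with log2 fold changes of -1.16 and -1.08 for IFT74, and -0.89 and -0.86 for IFT81 (adjusted p from 7.71e-06 to 3.83e-05). IFT20, the subunit also found at the Golgi, had means of 131 ± 8.22, 80.7 ± 5.06 and 88.3 ± 5.02 CPM (SD, n = 4) in fresh, DMEM/F12 and incubation medium libraries, the smallest change of the 9 in each medium (log2 fold changes -0.70 and -0.57). IFT22, IFT27 and IFT56 lay between, with log2 fold changes from -1.19 to -0.73. IFT22 and IFT27 are small GTPases of the complex.

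Of IFT-A, the return complex, 4 of 5 measured subunits were called lower in each medium (80%). The share of all tested genes called lower was 35.7% in DMEM/F12 and 35.8% in incubation medium. No difference from that background is read from 5 genes. IFT140 (ENSSSCG00025018730), a core subunit, was at 49.4, 52.4, 60.8 and 45.3 CPM in fresh cells, 14.6, 12.5, 10.2 and 12.4 CPM in DMEM/F12 and 12.2, 9.88, 9.11 and 10.2 in incubation medium. Its highest spheroid library stood at 14.6 CPM and its lowest fresh one at 45.3, and the log2 fold changes were -2.06 (SE 0.13, adjusted p = 7.11e-09) in DMEM/F12 and -2.33 (SE 0.13, adjusted p = 2.89e-09) in incubation medium. IFT122 (ENSSSCG00025028314) was at 91.2, 77.1, 81 and 78.6 CPM in fresh cells, 32.4, 24.5, 16.3 and 23.1 CPM in DMEM/F12 and 26.7, 22, 20.3 and 22.8 in incubation medium. Its lowest DMEM/F12 library was replicate 3, and its log2 fold changes were -1.77 (adjusted p = 1.95e-07) and -1.83 (adjusted p = 1.4e-07). WDR19 (ENSSSCG00025073227), the core subunit also called IFT144, was at 39.3, 34.4, 47.9 and 34.9 CPM in fresh cells, 12.9, 11, 12.4 and 8.76 CPM in DMEM/F12 and 10.5, 9.88, 9.85 and 8.33 in incubation medium. Its log2 fold changes were -1.79 (adjusted p = 6.45e-08) and -2.02 (adjusted p = 2.41e-08); counts that were not whole, which arise when a counter splits a read between features, occurred in 7 of its 12 libraries. IFT43, a peripheral subunit, fell less, from 85.8 ± 4.73 to 60.9 ± 5.3 and 58.4 ± 2.24 CPM (log2 fold changes -0.50, adjusted p = 6.48e-05, and -0.56, adjusted p = 2.27e-05). TTC21B (ENSSSCG00025046952), the peripheral subunit also called IFT139, did not follow. It was at 10.4, 13.6, 14 and 14.7 CPM in fresh cells, 13.1, 13.1, 16.1 and 13.6 CPM in DMEM/F12 and 14.1, 12.3, 15.4 and 11.3 in incubation medium, and the groups overlapped throughout. Its log2 fold changes of 0.09 (SE 0.14, adjusted p = 0.607) and 0.01 (SE 0.14, adjusted p = 0.952) passed no threshold.

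Both measured genes of dynein-2, the motor of the return path, were called lower in each medium. This stands beside 35.7% of all tested genes in DMEM/F12 and 35.8% in incubation medium, and 2 genes are too few to read a difference. DYNC2H1 (ENSSSCG00025035915), its heavy chain, was at 102, 94.2, 124 and 103 CPM in fresh cells, 32.2, 21.6, 17.2 and 21.6 CPM in DMEM/F12 and 31.7, 30.4, 24.2 and 26.2 in incubation medium. The highest spheroid library stood at 32.2 and the lowest fresh one at 94.2, and the log2 fold changes were -2.19 (SE 0.16, adjusted p = 3.05e-08) in DMEM/F12 and -1.91 (SE 0.16, adjusted p = 1.03e-07) in incubation medium. DYNC2LI1 (ENSSSCG00025028273), the light intermediate chain, was at 175, 152, 147 and 142 CPM in fresh cells, 102, 75.5, 47.6 and 87.9 CPM in DMEM/F12 and 101, 85.2, 78.4 and 91.6 in incubation medium. It varied most in DMEM/F12, where replicate 3 was lowest, and its log2 fold changes were -0.97 (adjusted p = 0.000166) and -0.79 (adjusted p = 0.00089).

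**Figure D2:**
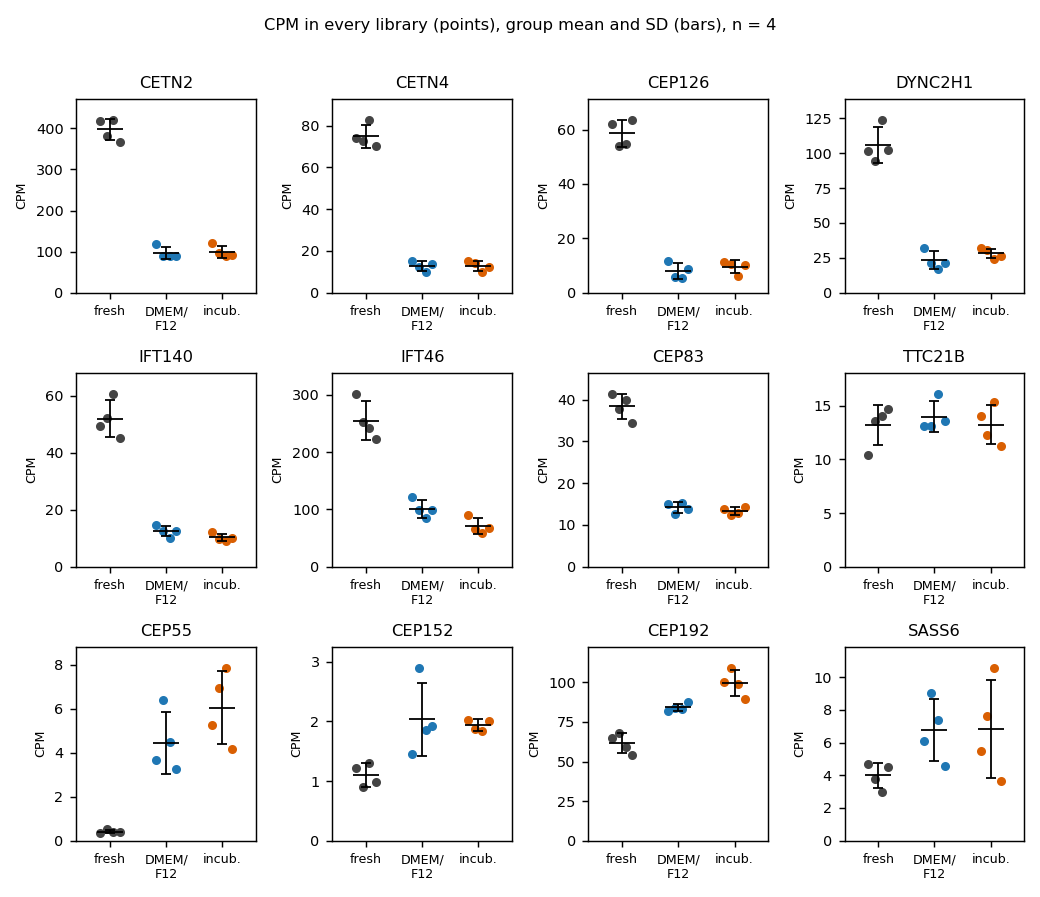
CPM (linear axes that start at 0) of 12 genes in every library, as points, with the group mean and SD as bars (n = 4). CETN2, CETN4, CEP126, DYNC2H1, IFT140, IFT46 and CEP83 are separated between fresh cells and spheroids, TTC21B overlaps in all groups, and all spheroid points of CEP55, CEP152 and CEP192 lie above the fresh ones, while SASS6 overlaps.

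Of the BBSome and the GTPase that recruits it, 5 of 5 tested genes were called lower in each medium. All tested genes had 35.7% called lower in DMEM/F12 and 35.8% in incubation medium. No difference from that background is read from 5 genes. ARL6 (ENSSSCG00025060792), the GTPase that brings the BBSome to membranes, was at 60.9, 56, 73.7 and 59.6 CPM in fresh cells, 20.9, 17.9, 14.7 and 17.8 CPM in DMEM/F12 and 23, 21.8, 14.5 and 20.8 in incubation medium. It fell 3.5-fold and 3.12-fold, and its log2 fold changes were -1.81 (SE 0.15, adjusted p = 7.09e-08) in DMEM/F12 and -1.64 (SE 0.14, adjusted p = 1.68e-07) in incubation medium. Of the BBSome subunits, TTC8 (ENSSSCG00025003221), also called BBS8, was at 49.1, 44.3, 60.4 and 47 CPM in fresh cells, 18.4, 14.9, 12.8 and 13.4 CPM in DMEM/F12 and 18.7, 19.2, 19.9 and 17.3 in incubation medium. That is 3.37-fold lower in DMEM/F12 (adjusted p = 2.51e-08) and 2.67-fold lower in incubation medium (adjusted p = 1.71e-07), and not-whole counts were present in 6 of the 12 libraries. BBS9, a BBSome subunit, had means of 38.1 ± 4.46, 11.5 ± 1.18 and 12 ± 2.19 CPM (SD, n = 4; log2 fold changes -1.73, adjusted p = 6.96e-08, and -1.66, adjusted p = 1.01e-07). A further pair of subunits fell less. BBS4 changed by -0.56 and -0.69 (adjusted p = 7.31e-05 and 9.65e-06), and BBS5 by -0.67 and -0.36 (adjusted p = 0.00034 and 0.0211). For BBS5 the incubation medium libraries, at 21.7, 19, 15.4 and 19.1 CPM, overlapped the fresh ones, at 28, 25.1, 23.4 and 19.99. Its call there was lost without fresh replicate 1 (-0.28, adjusted p = 0.081), fresh replicate 2 (-0.34, 0.0515) or incubation medium replicate 3 (-0.26, 0.087).

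Of the ciliary gate, MKS1 and TCTN3 changed by less than 2-fold in each medium. The 13 further transition zone genes given below had median log2 fold changes of -1.25 and -0.73. MKS1, of the Meckel syndrome module of the transition zone, was at 24.2, 22.4, 22.8 and 23.5 CPM in fresh cells, 19.3, 11.73, 12.4 and 16 CPM in DMEM/F12 and 11.2, 13.3, 13 and 12 in incubation medium. The log2 fold changes were -0.64 (SE 0.14, adjusted p = 0.00114) in DMEM/F12 and -0.91 (SE 0.15, adjusted p = 6.85e-05) in incubation medium. TCTN3, a tectonic, had means of 33.9 ± 1.72, 23.5 ± 2.09 and 21 ± 2.28 CPM (SD, n = 4; log2 fold changes -0.52, adjusted p = 0.000301, and -0.69, adjusted p = 2.75e-05). CPLANE2, a small GTPase of the ciliogenesis and planar polarity effector complex, was at 8.88, 7.71, 10.3 and 12.3 CPM in fresh cells, 6.2, 5.34, 4.23 and 6.12 CPM in DMEM/F12 and 4.53, 5.21, 4.31 and 6.31 in incubation medium. It changed by -0.83 (adjusted p = 0.00141) and -0.94 (adjusted p = 0.000559).

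Among genes of the ciliary membrane and its tubulin, 3 of 4 tested were called lower in each medium. That is 75%, beside 35.7% of all tested genes in DMEM/F12 and 35.8% in incubation medium. CEP41, needed for glutamylation of ciliary tubulin, fell from 47.2 ± 6.28 to 22.9 ± 1.72 and 26.2 ± 4.05 CPM (log2 fold changes -1.04, adjusted p = 4.01e-06, and -0.85, adjusted p = 2.77e-05). INPP5E (ENSSSCG00025012509), the phosphatase that sets the lipid composition of the ciliary membrane, was at 29.2, 33, 26.7 and 25.5 CPM in fresh cells, 21.4, 21.7, 24.5 and 24.6 CPM in DMEM/F12 and 18.1, 13.6, 15.1 and 16 in incubation medium. It fell by 0.31 (adjusted p = 0.0227) on the log2 scale in DMEM/F12 and by 0.86 (adjusted p = 1.13e-05) in incubation medium. In DMEM/F12 its call was lost without fresh replicate 1 (-0.30, adjusted p = 0.0504), fresh replicate 2 (-0.23, 0.0938), DMEM/F12 replicate 1 (-0.26, 0.073) or DMEM/F12 replicate 2 (-0.27, 0.0745), and with library totals in place of TMM scaling (-0.24, 0.0564). ARL3 (ENSSSCG00025076213), which releases lipid-modified cargo inside the cilium, went the other way. It was at 72.6, 51.7, 58.7 and 67.4 CPM in fresh cells, 62, 68.3, 71.8 and 66.8 CPM in DMEM/F12 and 78.7, 97.3, 87.6 and 79 in incubation medium. All 4 incubation medium libraries lay above all fresh ones (log2 difference 0.45, SE 0.11, adjusted p = 0.00174), whereas DMEM/F12 and fresh cells overlapped (log2 difference 0.10, adjusted p = 0.409).

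**Figure D3:**
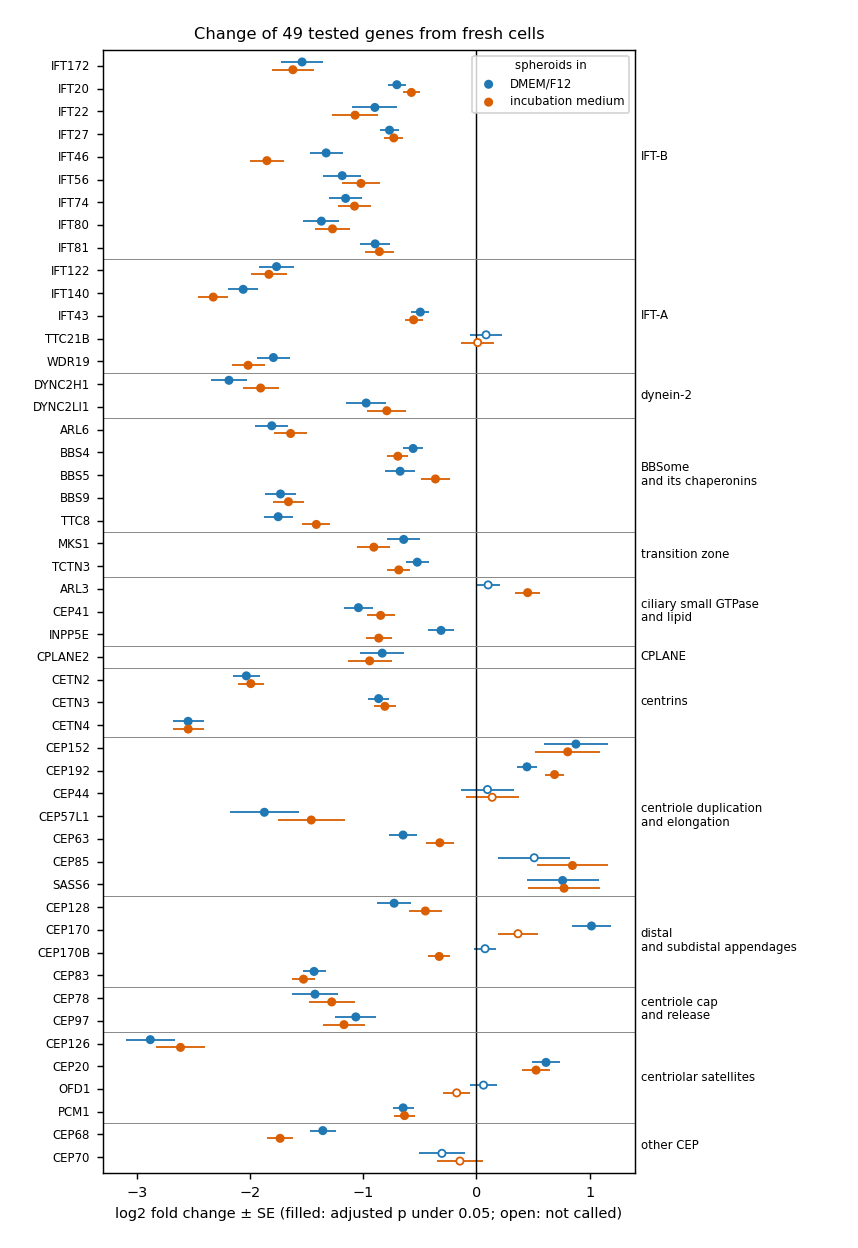
Log2 fold change from fresh cells with its SE (bars) for 49 tested genes, CEP55 not among them, in DMEM/F12 spheroids (blue) and incubation medium spheroids (orange). Filled points had an adjusted p under 0.05; points left of 0 are lower in spheroids, and CEP126 and CETN4 lie farthest left.

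Centrins are small calcium-binding proteins inside centrioles, and all 3 tested ones were called lower in both media. Among all tested genes 35.7% were called lower in DMEM/F12 and 35.8% in incubation medium. No difference from that background is read from 3 genes. CETN2 (ENSSSCG00025000011) was at 418, 382, 421 and 367 CPM in fresh cells, 118, 90.4, 89.6 and 90.2 CPM in DMEM/F12 and 121, 96.1, 89.2 and 93 in incubation medium. It was 4.09-fold and 3.98-fold lower, and its log2 fold changes were -2.03 (SE 0.12, adjusted p = 3.12e-09) in DMEM/F12 and -1.99 (SE 0.12, adjusted p = 3.65e-09) in incubation medium. CETN4 (ENSSSCG00025036151) fell further. It was at 74, 72.8, 82.8 and 70.2 CPM in fresh cells, 15.1, 12.4, 9.92 and 13.7 CPM in DMEM/F12 and 15, 14, 9.97 and 12.2 in incubation medium, which is 5.85-fold lower in DMEM/F12 and 5.84-fold lower in incubation medium (adjusted p = 1.65e-09 and 1.69e-09). CETN3 (ENSSSCG00025031609), a centrin of another branch of the family, was at 87.2, 87.2, 89.6 and 87.2 CPM in fresh cells, 52.9, 47, 42.9 and 49.9 CPM in DMEM/F12 and 56.3, 43.4, 45.9 and 54.7 in incubation medium, a change of -0.86 (SE 0.10, adjusted p = 1.71e-06) and -0.81 (SE 0.10, adjusted p = 3.13e-06). CETN1 had 0 counts in all 12 libraries, where a count of 0 allows up to 3 counts per library, or 0.348 to 0.588 CPM.

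Of 7 genes that build new centrioles the test called 3 higher and 2 lower in DMEM/F12 (42.9% and 28.6%, beside 35.1% and 35.7% of all tested genes). In incubation medium it called 4 higher and 2 lower (57.1% and 28.6%, beside 35.8% each). No difference from the background is read from 7 genes, and the values of single genes follow. CEP192 (ENSSSCG00025050489), a scaffold of the centrosome that brings in PLK4 and pericentriolar material, was at 64.7, 68.3, 59.5 and 54.3 CPM in fresh cells, 81.7, 83.9, 83.4 and 87.5 CPM in DMEM/F12 and 100.5, 109, 99 and 89.7 in incubation medium. Every spheroid library was above every fresh one, and the log2 fold changes were 0.45 (SE 0.09, adjusted p = 0.000345) in DMEM/F12 and 0.69 (SE 0.09, adjusted p = 5.88e-06) in incubation medium. Its level is uncertain, since not-whole counts were present in 11 of the 12 libraries. SASS6 (ENSSSCG00025009823), the protein of the centriole's cartwheel, was at 4.7, 3.77, 2.99 and 4.51 CPM in fresh cells, 6.08, 9.06, 7.41 and 4.56 CPM in DMEM/F12 and 5.49, 7.61, 10.6 and 3.63 in incubation medium. Its groups overlapped, with the fourth replicate of each medium within the fresh range, and its log2 fold changes were 0.76 (adjusted p = 0.044) and 0.77 (adjusted p = 0.0408). These calls for SASS6 were lost without fresh replicate 2 (adjusted p = 0.0854 and 0.0794), 3 (0.112 and 0.104) or 4 (0.0578 and 0.0539). They were also lost without DMEM/F12 replicate 2 (0.124) or 3 (0.0761) in that medium, and without incubation medium replicate 2 (0.0755) or 3 (0.154) in the other. CEP152, a receptor of PLK4, had few reads: 5 to 7 counts per fresh library and 12 to 25 per spheroid library. It was at 1.218, 0.897, 1.31 and 0.98 CPM in fresh cells, 1.46, 2.9, 1.85 and 1.92 CPM in DMEM/F12 and 2.03, 1.87, 1.85 and 2.02 in incubation medium, a change of 0.88 (adjusted p = 0.0131) and 0.81 (adjusted p = 0.0225) that was lost in DMEM/F12 without DMEM/F12 replicate 2 (0.67, adjusted p = 0.0861). In incubation medium it was lost without fresh replicate 2 (0.72, 0.0636) or 4 (0.76, 0.0519). In both media it missed the threshold with DESeq2 (adjusted p = 0.0568 and 0.0838).

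CEP63, the partner that recruits CEP152, was lower. CEP63 (ENSSSCG00025002576) was at 20.7, 19.5, 19.6 and 20.6 CPM in fresh cells, 14.1, 11.2, 11.5 and 14.5 CPM in DMEM/F12 and 18.6, 15.1, 13.9 and 16.7 in incubation medium, with log2 fold changes of -0.65 (adjusted p = 0.000334) and -0.32 (adjusted p = 0.0298). In incubation medium the call of CEP63 was lost without fresh replicate 1 (-0.30, adjusted p = 0.0631) or 4 (-0.31, 0.0597) and without incubation medium replicate 2 (-0.28, 0.0897) or 3 (-0.24, 0.111). CEP57L1, a relative of the centrosome gene CEP57, was at 2.44, 4.3, 2.43 and 3.53 CPM in fresh cells, 0.73, 1.05, 0.529 and 1.08 CPM in DMEM/F12 and 1.31, 1.2, 1.23 and 0.806 in incubation medium. No spheroid library of CEP57L1 reached the fresh range (log2 fold changes -1.87, adjusted p = 7.57e-05, and -1.46, adjusted p = 0.00048). CEP57L1 had few reads, 13 to 24 counts per fresh library and 4 to 11 per spheroid library. CEP85, a regulator of centriole assembly, was called higher in incubation medium (log2 difference 0.85, adjusted p = 0.0245) and not in DMEM/F12 (log2 difference 0.51, adjusted p = 0.21), and the difference between the media was not called (log2 difference 0.34, adjusted p = 0.406). It rested on 3 to 16 counts per library, and its call was lost without fresh replicate 2 (0.74, adjusted p = 0.0749) or 4 (0.69, 0.0883) or incubation medium replicate 1 (0.82, 0.0529). CEP44, needed to convert a new centriole into a centrosome, stayed under the threshold (log2 fold changes 0.10, adjusted p = 0.722, and 0.14, adjusted p = 0.612).

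CEP55 rose most of all. It acts at the midbody, where daughter cells separate, and is best known from dividing cells. CEP55 (ENSSSCG00025008657) held 2 to 3 counts in each fresh library, and was at 0.348, 0.538, 0.374 and 0.392 CPM in fresh cells, 3.65, 6.39, 4.5 and 3.24 CPM in DMEM/F12 and 5.25, 6.94, 7.88 and 4.16 in incubation medium. Summed over libraries it was 10.8 times the fresh level in DMEM/F12 (95% exact interval 5.53 to 24.1, from 146 and 9 counts) and 14.7 times in incubation medium (7.58 to 32.6, from 191 and 9 counts), intervals that cover counting error only. The adjusted p was 2.31e-06 and 4.87e-07. The cycling marker TOP2A, a DNA topoisomerase, moved with it, at 7.68 ± 1.82, 50.7 ± 4.9 and 76.8 ± 9.09 CPM (SD, n = 4), as did all 14 proliferation markers, and their part in the rise was not tested.

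Appendages sit on the mother centriole, and the distal ones dock it at the membrane. In DMEM/F12 the test called 2 of 4 lower and 1 higher (50% and 25%), and in incubation medium 3 lower (75%). Among all tested genes 35.7% were lower and 35.1% higher in DMEM/F12, and 35.8% each in incubation medium. No difference from that background is read from 4 genes. CEP83 (ENSSSCG00025061335), of the distal appendages, was at 41.4, 37.7, 39.8 and 34.5 CPM in fresh cells, 15.1, 12.7, 15.3 and 13.7 CPM in DMEM/F12 and 13.8, 12.3, 12.8 and 14.2 in incubation medium. It was 2.7-fold and 2.88-fold lower (adjusted p = 1.92e-08 and 1.13e-08). CEP128, of the subdistal appendages, changed from 13.7 ± 1.87 to 8.26 ± 0.961 and 10.01 ± 1.28 CPM (log2 fold changes -0.73, adjusted p = 0.000484, and -0.45, adjusted p = 0.0123). In incubation medium its call was lost without fresh replicate 2 (-0.36, adjusted p = 0.0537). CEP170 (ENSSSCG00025044718), a subdistal appendage protein of centrosomes in cycling cells too, was at 8.53, 8.07, 8.04 and 9.99 CPM in fresh cells, 13.1, 20.6, 19.1 and 17.3 CPM in DMEM/F12 and 9.07, 13.5, 10.2 and 12 in incubation medium. It rose 2.02-fold in DMEM/F12 (log2 difference 1.02, adjusted p = 8.76e-05), and in incubation medium it overlapped fresh cells (log2 difference 0.37, adjusted p = 0.0716). With the replicate block CEP170 was called there also (0.36, adjusted p = 0.0419), as it was without DMEM/F12 replicate 1 (0.38, 0.0358) or incubation medium replicate 1 (0.47, 0.0289). Its paralog CEP170B was not called in DMEM/F12 (log2 difference 0.08, adjusted p = 0.488) and was lower in incubation medium (log2 difference -0.33, adjusted p = 0.00657).

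A gene of the centriole cap and a gene of the centriole wall were each called lower in both media. The share of all tested genes called lower was 35.7% in DMEM/F12 and 35.8% in incubation medium. No difference from that background is read from 2 genes. CEP97, which caps the distal end together with CP110 and keeps it from growing a cilium, was at 11.8, 10.6, 14 and 15.1 CPM in fresh cells, 6.33, 5.58, 5.29 and 7.32 CPM in DMEM/F12 and 6.56, 4.0, 6.03 and 6.18 in incubation medium (log2 fold changes -1.07, adjusted p = 0.000107, and -1.17, adjusted p = 4.91e-05). CEP78, a centriolar wall protein, had means of 16.4 ± 1.91, 6.1 ± 1.29 and 6.74 ± 1.75 CPM (SD, n = 4), and log2 fold changes of -1.43 (adjusted p = 2.07e-05) and -1.28 (adjusted p = 5.3e-05). Replicate 4 was the lowest library of CEP78 in each medium, at 4.20 and 4.30 CPM.

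Of 4 satellite and ciliary base genes, 2 fell, 1 rose and 1 was not called, in each medium (50% lower and 25% higher). All tested genes had 35.7% lower and 35.1% higher in DMEM/F12, and 35.8% each in incubation medium. No difference from that background is read from 4 genes. CEP126 (ENSSSCG00025057343), a microtubule-binding protein of the centrosome and ciliary base, had the largest fall of the 52 tested genes in each medium. It was at 62.1, 54, 54.6 and 63.7 CPM in fresh cells, 11.68, 5.81, 5.56 and 8.64 CPM in DMEM/F12 and 11.5, 10.7, 6.03 and 10.1 in incubation medium. The log2 fold changes were -2.88 (SE 0.22, adjusted p = 3.42e-08) in DMEM/F12 and -2.61 (SE 0.21, adjusted p = 7.63e-08) in incubation medium, which is 7.37-fold and 6.13-fold lower. PCM1, the scaffold of centriolar satellites, fell from 132 ± 8.0 to 84 ± 7.99 and 84.7 ± 7.86 CPM (log2 fold changes -0.65, adjusted p = 1.98e-05, and -0.64, adjusted p = 2.3e-05). CEP20 (ENSSSCG00025014677), a satellite protein that helps recruit PLK1 and assemble cilia, was at 11.1, 10.4, 13.1 and 12 CPM in fresh cells, 15.6, 17.5, 19.8 and 18.4 CPM in DMEM/F12 and 16.6, 17.1, 18.5 and 14.9 in incubation medium. All 8 spheroid libraries of CEP20 were above the 4 fresh ones (log2 fold changes 0.61, adjusted p = 0.000387, and 0.53, adjusted p = 0.00136). OFD1, which controls centriole length and sits in satellites, was called in neither medium (log2 fold changes 0.06, adjusted p = 0.649, and -0.17, adjusted p = 0.202). Of the remaining centrosome genes, CEP68, which holds the 2 centrosomes together, fell from 39.7 ± 4.92 to 15.5 ± 1.21 and 11.9 ± 1.25 CPM (log2 fold changes -1.36, adjusted p = 1.06e-07, and -1.73, adjusted p = 1.25e-08). CEP70, a gamma-tubulin-binding protein, was not called (log2 fold changes -0.31, adjusted p = 0.194, and -0.15, adjusted p = 0.532).

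Partners within a complex or family were set side by side as the log2 ratio of their CPM in each library. The 4 pairs were chosen with their fold changes known, so the ratios are a description and no test is given. The ratio of CETN2 to CETN3 averaged 2.17 ± 0.09 in fresh cells, and 1.00 ± 0.13 and 0.99 ± 0.17 in the DMEM/F12 and incubation medium libraries (SD, n = 4). For the dynein-2 chains, DYNC2H1 to DYNC2LI1, it was -0.55 ± 0.24, -1.73 ± 0.23 and -1.65 ± 0.13. The mean ratio of CEP152 to CEP63 was higher than in fresh cells by 1.37 and 1.02, and that of CEP170 to CEP170B by 0.91 and 0.68.

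Other genes of the pathway were taken from lists that hold no member. Their shares stand beside 35.7% lower and 35.1% higher among all tested genes in DMEM/F12, and 35.8% each in incubation medium. Of 11 further IFT and trafficking genes, 7 were called lower in each medium (63.6%). In DMEM/F12 1 was higher (9.09%) and in incubation medium 2 (18.2%), with medians of -0.46 and -0.50. KIF3A, a motor subunit of kinesin-2, fell from 42.2 ± 3.94 to 30.6 ± 1.1 and 30.8 ± 3.82 CPM (log2 fold changes -0.46 and -0.45, adjusted p = 0.000895 and 0.00104). Of 13 further transition zone genes 9 were lower in each medium (69.2%), with 2 and 3 higher (15.4% and 23.1%, medians -1.25 and -0.73). Of 5 further appendage and basal body genes 3 were lower and 1 higher in each medium (60% and 20%). No difference from the background is read from 5 genes. Of 11 further centriole duplication genes, 4 were higher and 4 lower in DMEM/F12 (36.4% each, beside 35.1% and 35.7% of all tested genes), and 5 higher and 4 lower in incubation medium (45.5% and 36.4%, beside 35.8% each). Their medians were 0.10 and -0.02. Of 5 pericentriolar and gamma-tubulin genes 3 were higher and 1 lower in each medium (60% and 20%), again too few to read a difference. Genes of centriole amplification and regulators of multiciliogenesis, taken as 1 list, had 8 of 13 lower in each medium (61.5%, medians -1.57 and -2.05). In DMEM/F12 3 were higher and in incubation medium 4 (23.1% and 30.8%). RFX3, a transcription factor of ciliary genes, fell from 20.1 ± 2.89 to 3.96 ± 0.437 and 4.48 ± 0.705 CPM (-2.33 and -2.16, adjusted p = 1.65e-08 and 3.05e-08). CCNO, a cyclin-like gene of centriole amplification, was at 3.33 to 10.1 CPM in fresh libraries and at most 0.348 CPM in DMEM/F12 and 1.34 CPM in incubation medium (adjusted p = 3.5e-05 and 0.000125). PLK4 and DEUP1, as well as IFT52, IFT57, IFT88, STIL and CENPJ, were not analysed here.

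The spheroids of the 2 media were then compared with each other. Of the 52 genes 2 were called higher and 5 lower in incubation medium than in DMEM/F12, where 12.7% and 12.3% of all tested genes were called, 25% in all. The share among the 52 genes was 13.5%. None of the 52 differed 2-fold, which 3.38% of all tested genes did as lower and 2.06% as higher. The median log2 difference was 0.04, and with library totals in place of TMM scaling the split was 0 higher and 6 lower. With the replicate block it was 5 higher and 5 lower, and BBS5 (0.31, adjusted p = 0.0428) and CEP63 (0.33, 0.0305) were among those that passed too. The higher count was 0 or 1 without fresh replicate 1 or 3, DMEM/F12 replicate 2, 3 or 4, or incubation medium replicate 1 or 2, and the lower count was 3 without DMEM/F12 replicate 1 or incubation medium replicate 3. Of the cilium building genes, IFT46 was the one called: its libraries lay at 122, 99.8, 84.7 and 98.9 CPM in DMEM/F12 and 90.9, 65.7, 58.3 and 67.3 in incubation medium, and they overlapped (log2 difference -0.52, SE 0.14, adjusted p = 0.0165). The call of IFT46 was lost without DMEM/F12 replicate 1 (-0.42, adjusted p = 0.0548), incubation medium replicate 2 (-0.49, 0.0504) or 3 (-0.44, 0.0541). INPP5E was lower in incubation medium by 0.55 (SE 0.11, adjusted p = 0.00301), with no overlap between the media. CEP170B, with no overlap either, was lower by 0.40 (adjusted p = 0.00621), at 101, 81.9, 81.2 and 79.6 against 70.1, 56.5, 66.8 and 66 CPM. CEP170 was lower by 0.65 (adjusted p = 0.00865), and its highest incubation medium library, 13.5 CPM, was above its lowest DMEM/F12 library, 13.1.

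CEP68 was lower in incubation medium by 0.38 (adjusted p = 0.0321), at 11.1, 13.3, 10.7 and 12.6 against 17.2, 14.4, 14.8 and 15.6 CPM. That call was lost without DMEM/F12 replicate 1 (adjusted p = 0.0909) or 4 (0.0666) or incubation medium replicate 1 (0.0836) or 3 (0.0938). ARL3 was higher in incubation medium (log2 difference 0.35, adjusted p = 0.0268) with no overlap, and lost its call without DMEM/F12 replicate 1 (0.0739), 2 (0.0533) or 4 (0.0605), or incubation medium replicate 2 (0.0894) or 3 (0.0595). CEP192 was higher (log2 difference 0.24, adjusted p = 0.0486), also with no overlap. Its adjusted p rose past the threshold, to between 0.0565 and 0.144, without any 1 of 9 of the 12 libraries; it remained called without fresh replicates 2 and 4 and incubation medium replicate 4. Leaving out DMEM/F12 replicate 1 brought in DYNC2H1 (0.48, adjusted p = 0.0216) and TTC8 (0.45, 0.0197) as higher in incubation medium, and leaving out incubation medium replicate 3 brought in BBS5 (0.40, 0.0421) and CEP63 (0.39, 0.0479).

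**Figure D4:**
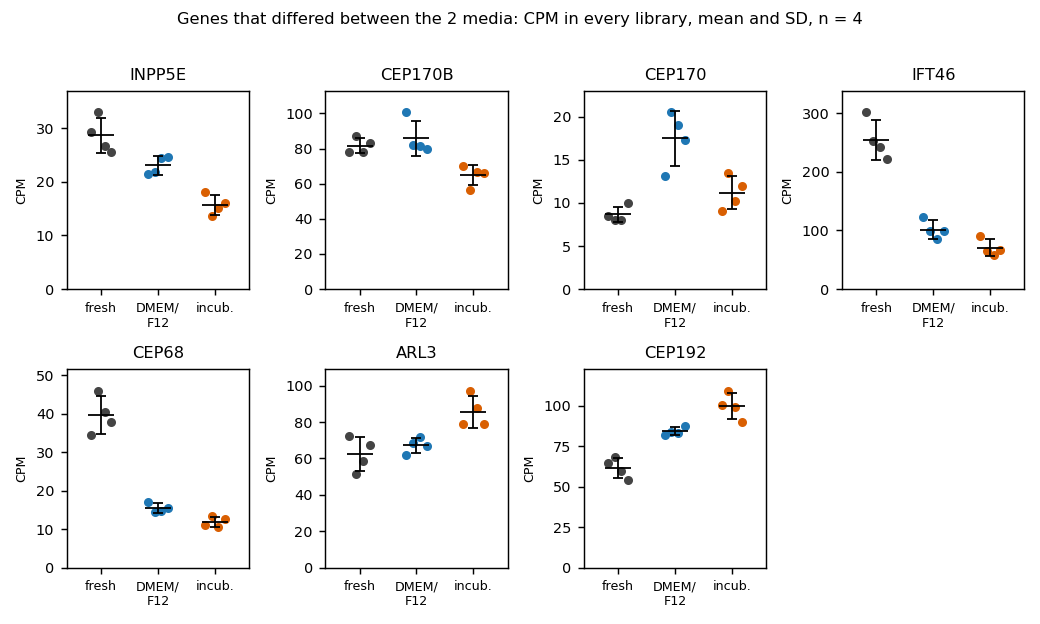
CPM (linear axes that start at 0) of the 7 genes called between the 2 media, as points for every library with group mean and SD (n = 4). INPP5E, CEP170B, CEP170, IFT46 and CEP68 are lower in incubation medium than in DMEM/F12 by 0.38 to 0.65 on the log2 scale, and ARL3 and CEP192 are higher by 0.35 and 0.24.

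Within each spheroid group the same libraries were often the highest or the lowest for these genes. Of the 38 genes lower in both media, 28 had their highest DMEM/F12 value in replicate 1 and 24 their lowest in replicate 3. In incubation medium replicate 1 was highest for 23 and replicate 3 lowest for 20. The median deviation of the 38 genes from the group mean was 0.18 in replicate 1 and -0.18 in replicate 3 of DMEM/F12, and 0.18 and -0.13 in incubation medium, on the log2 scale. The 10 axoneme markers deviated in the same libraries by 0.67 and -0.65, and by 0.38 and -0.46. FOXJ1, the regulator of motile cilia, was at 133, 91.2, 54.8 and 74.8 CPM in DMEM/F12 replicates 1 to 4 and at 82.1, 65.0, 51.2 and 71.6 in those of incubation medium, so replicate 1 was highest and replicate 3 lowest in each. In fresh cells the median deviation of the 38 genes was between -0.06 and 0.03 in every library, that of the axoneme markers was between -0.12 and 0.16, and FOXJ1 was at 440, 447, 455 and 471 CPM. The proliferation markers of spheroid replicates 1 and 3 deviated by -0.05 and -0.01 in DMEM/F12 and by -0.32 and 0.26 in incubation medium. This spread was not tested.

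**Figure D5:**
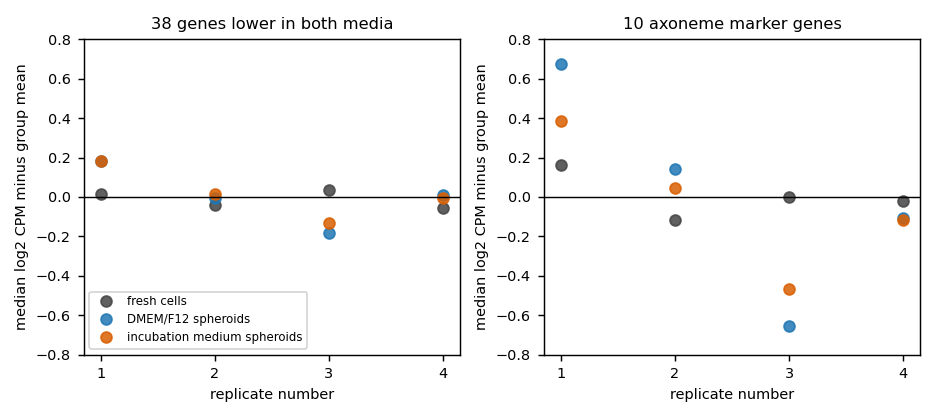
Median deviation from the group mean (log2 CPM) of the 38 genes lower in both media (left) and of 10 axoneme marker genes (right), for each library by replicate number. Replicate 1 is highest and replicate 3 lowest in both spheroid groups, by 0.18 and -0.18 in DMEM/F12 for the 38 genes. Fresh cell libraries lie between -0.06 and 0.03 for the 38 genes and between -0.12 and 0.16 for the axoneme markers.

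The remaining 3 of the 55 genes did not pass the filter and were not tested. BBS10, a chaperonin-like protein that assembles the BBSome, held 6 to 12 counts per library. CEP19, a ciliary base protein, held 1 to 8 counts, and CETN1 held 0.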

How the data were processed

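RNA of 12 libraries was measured by 3′ mRNA sequencing. The labels' protocols give lysis in DNA/RNA Shield, oligo-dT priming, tagmentation and PCR. Per the submitters' processing notes, fastp 0.24.0, STAR 2.7.11, SAMtools 1.22.1, featureCounts and Subread 2.1.1 were used; the genome build and annotation are not given in the sources used here. The deposited table gives, per gene and library, counts and CPM. The unit of the deposited counts was set to expected counts, and how the authors split reads is not given in the sources used here: 19.1 to 20.5% of the nonzero values of a library are not whole. They were rounded for testing. The deposited CPM equal count over total to within 5e-06 and were used for this check only. Totals were 5045218 to 8603809 counts per library with 92 spike-in rows included, which were left out of the tests. Sampling noise did not explain the differences between any 2 libraries of a group (chi-square per degree of freedom 5.84 to 16.8), so all 12 were kept.

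A single edgeR 4.0.16 quasi-likelihood fit (R 4.3.3) with 1 mean per group, TMM scaling and the filter filterByExpr covered 14070 genes, and p-values were adjusted by Benjamini and Hochberg over all of them; the call threshold was 0.05. CPM in the text are TMM-scaled, and each SE is the log2 fold change over the root of its F statistic. Alternatives were DESeq2 1.42.0, other scalings, filters, thinned counts, only whole counts, a replicate block and leaving out each library. The fit was tested on simulated data. Replicate numbers pair the libraries: the deviations of same-numbered libraries from their group means correlated at 0.196 to 0.293 between fresh cells and spheroids and at 0.394 to 0.516 between the media, and the pairing rests on this correlation, not on the labels. The main fit has no term for this pairing, so its p-values leave it out. The replicate block takes it in.

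Members and gene lists were chosen with earlier results of these data known. Values in every library are given for up to 3 genes per role with the largest change from fresh cells at a mean of at least 5 CPM, up to 1 per role called against the direction of most of its role, and up to 8 with the smallest adjusted p between the media; a few others were added for contrast after their values were seen. The table's gene IDs matched 0 entries of the name table, so symbols are those of the deposited table, and no coordinates or sequences are given. Counts cover all members, but the values of 2 of them are not reported here.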

Additional observations from a re-analysis of the deposited data

Results flagged for a closer look

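A library was flagged as apart from the other 3 of its group in 3 of 114 groups of 4 that were examined for 38 genes. Chance gives about 1 in 20, which is more, so no library is read as apart from these flags alone. The flags concern single genes and cannot show that no library was apart over many genes. DMEM/F12 replicate 1 was the highest of its group for 28 of the 38 genes lower in both media, as given above. CETN2 was at 118.2 CPM in DMEM/F12 replicate 1 and at 89.6 to 90.4 in the others. CEP170B was at 100.8 CPM in the same library and at 79.6 to 81.9 in the others. CETN3 was at 89.6 CPM in fresh replicate 3 and at 87.2 in the others, a small gap on 479 counts there and 445 to 501 in the others.

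For 7 of the 52 tested genes (13.5%) the change from fresh cells differed between the media (edgeR quasi-likelihood test, n = 4 in each group). The test is the contrast between the media given above, so these are the same 7 calls and not a second test. Among all tested genes 25% were called. Of the 7 calls, 3 held under every alternative that covered the gene. The differences, incubation medium minus DMEM/F12 on the log2 scale, were -0.55 for INPP5E (adjusted p = 0.00301), -0.40 for CEP170B (adjusted p = 0.00621), -0.65 for CEP170 (adjusted p = 0.00865) and -0.52 for IFT46 (adjusted p = 0.0165). They were -0.38 for CEP68 (adjusted p = 0.0321), 0.35 for ARL3 (adjusted p = 0.0268) and 0.24 for CEP192 (adjusted p = 0.0486).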

How the results depend on the processing

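Of 84 named results, 72 kept their direction and their side of the threshold under each of the 21 alternatives that covered their gene. No called change reversed its sign under any of them. Genes with not-whole counts, CEP192 among them, were not covered by the alternative with whole counts alone. Calls that held under every alternative that covered the gene were 42 of 45 in DMEM/F12 against fresh cells. They were 40 of 46 in incubation medium against fresh cells and 3 of 7 between the media. With whole counts alone, where 24 of the genes could be tested, 3 were higher and 17 lower in each medium against fresh cells, and 0 higher and 2 lower between the media. Leaving out 1 library at a time gave 4 to 6 higher and 38 to 40 lower in DMEM/F12, 4 to 8 and 37 to 40 in incubation medium, and 0 to 2 and 3 to 5 between the media. Between the media, 1 gene was higher with RLE size factors, no filter, a mean of at least 10 counts or thinned counts, 0 with library totals and 5 with the replicate block. The block changed the call of CEP170 in incubation medium and of 3 genes between the media, BBS5 and CEP63 among them, and no other call. With thinned counts CEP152 (adjusted p = 0.0544 in DMEM/F12, 0.123 in incubation medium), SASS6 (0.173 and 0.0639) and BBS5 in incubation medium (0.0613) lost their calls. Without the filter INPP5E in DMEM/F12 (0.12) and BBS5 (0.0786), CEP63 (0.126) and CEP128 (0.0524) in incubation medium lost theirs, as did CEP85 with DESeq2 (0.0894). The cause was not tested. CEP152 held 5 to 25 counts per library and CEP85 3 to 16.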
